A study of Homo sapiens with 4 samples.

Results

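The aminoacyl-tRNA synthetases were followed in 2 human liver cancer cell lines with and without PF-429242, an inhibitor of site-1 protease. That Golgi enzyme takes part in releasing the sterol regulatory element-binding proteins and ATF6 from the membrane. The family was taken by gene symbol, and all 35 of its members were found among the 32479 genes of the deposited expression table, 19 of them cytosolic and 16 mitochondrial (those whose symbol ends in 2). Total RNA was sequenced from HepG2, derived from a hepatoblastoma, and PLC/PRF/5, from a hepatoma with hepatitis B virus DNA in its genome. Each line gave 1 library of untreated control cells at 24 h and 1 library of cells treated with 20 uM PF-429242 for 24 h. Both lines were labelled WT and were grown in the same glutamine- and serum-containing medium, and no vehicle is named for the controls. With 1 library a group, the differences given here have no replicate check. Intervals given below are 95% exact conditional binomial (Clopper-Pearson) intervals on the ratio of a pair of libraries, and hold counting error alone.

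A synthetase joins an amino acid to its tRNAs, the step that sets the genetic code. Each serves 1 kind of amino acid, except EPRS1, which serves glutamate and proline. In human cells the cytosol and the mitochondrion have mostly separate enzymes, encoded by separate nuclear genes. Several cytosolic enzymes are held in a multisynthetase complex, and many cytosolic genes are targets of ATF4, the transcription factor of the integrated stress response, whose translation goes up when cells lack amino acids or when unfolded proteins build up in the endoplasmic reticulum. The glycine enzyme (GARS1) and the lysine enzyme (KARS1) each serve both compartments from 1 gene, and both are counted here as cytosolic.

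The 4 libraries held 16722204 to 21387301 fragments, and between 11428 and 12441 genes reached 1 FPKM (fragment counts corrected for gene length and for the library's total) in each. Fragments of mitochondrial-genome transcripts were 16.6% of the control and 27.6% of the treated library in HepG2, and 21.3% and 28.2% in PLC/PRF/5. The median log2 ratio of all genes, treated over control, was -0.17 in HepG2 and -0.13 in PLC/PRF/5, and it was -0.00 and -0.02 when values were scaled to nuclear genes only. Set medians and counts of members are therefore also given relative to the all-gene median, while ratios of single members are mostly not. A member below 0 can still lie above that median, as KARS1 did in HepG2 (log2 ratio -0.11, 0.07 above it). All 10 hepatocyte markers were at 1 FPKM or more in every library, and none of the 5 fibroblast markers in the table was. Of the 4 blood markers measured, LYZ alone was, at 504 and 462 FPKM in HepG2 and 179 and 209 in PLC/PRF/5, and of the 4 endothelial markers PECAM1 alone was, in PLC/PRF/5 (1.36 and 1.03 FPKM). Their part in the member values was not tested.

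Of the 35 genes, 34 had at least 1 FPKM in some library of each comparison. The exception was SARS2, the mitochondrial serine enzyme, at 0.777 and 0.669 FPKM in control and treated HepG2 and 0.825 and 0.911 in PLC/PRF/5. Its values rest on 42 to 57 fragments, and 57.0% of its exon length is shared with MRPS12 and a read-through transcript. The summed level of the 19 cytosolic genes was 492 FPKM without and 527 with the inhibitor in HepG2, and 618 and 629 in PLC/PRF/5. For the 16 mitochondrial genes the sums were 156, 134, 148 and 127 FPKM in the same order. So on the deposited scale the cytosolic sum was higher and the mitochondrial sum lower in the treated library of each line. In bulk RNA a smaller number of cells expressing a gene and less of its RNA per cell cannot be told apart.

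**Figure D1:**
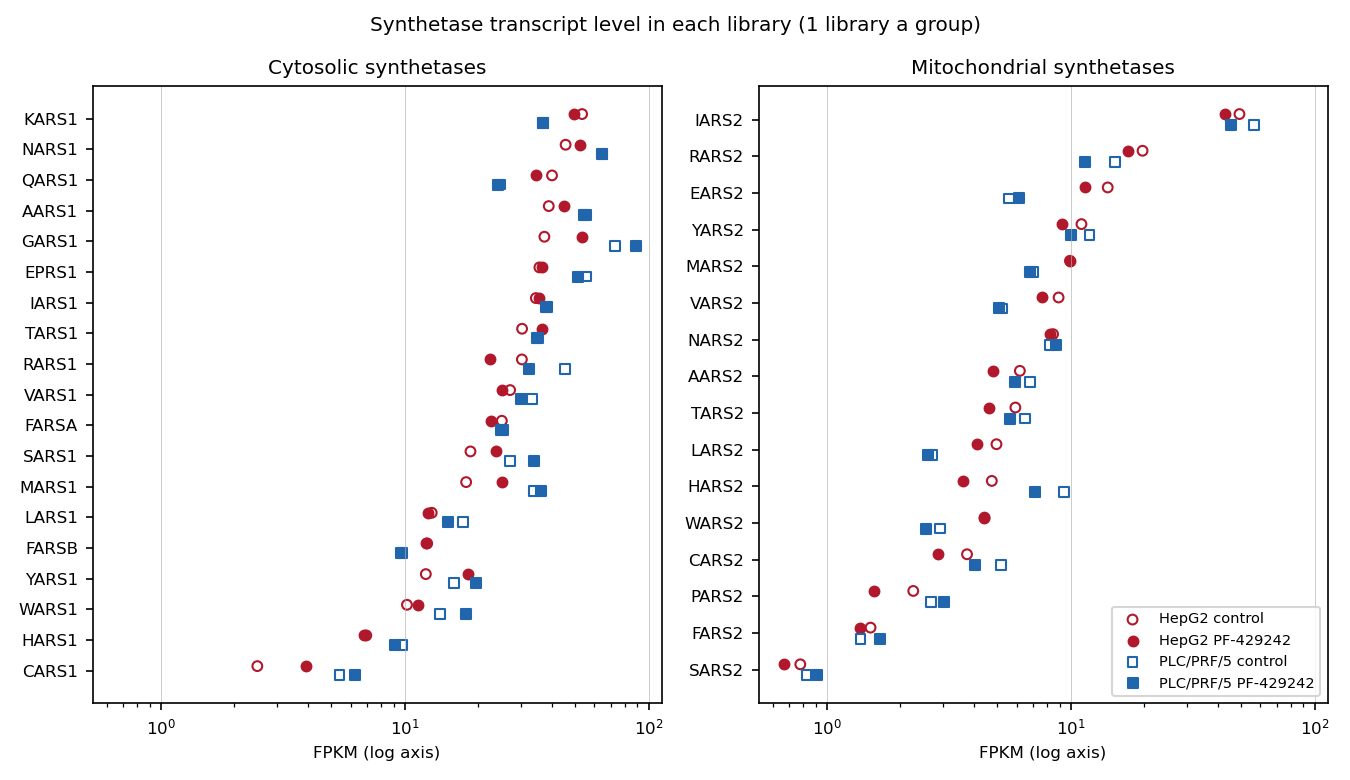
FPKM of each of the 35 synthetase genes (log axis) in the 4 libraries, with 1 point a library, cytosolic genes on the left and mitochondrial genes on the right. Most cytosolic genes lie above 10 FPKM; among the mitochondrial genes IARS2 stands highest, at 42.8 to 56.6 FPKM.

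Among the cytosolic genes, the 13 that literature lists place under ATF4 were separated from the other 6 (FARSA, FARSB, HARS1, KARS1, QARS1, RARS1). In HepG2, 11 of the 13 were higher in the treated library on the scale of log2(FPKM + 1), where 17.6% of 12347 genes were, and their median log2 ratio was 0.21, or 0.38 above the median of all genes. In PLC/PRF/5, 7 of the 13 were higher, against 29.1% of 13144 genes, with a median of 0.03, or 0.16 above that of all genes. None of the other 6 was higher in HepG2 (median -0.13) and 1, FARSA, was in PLC/PRF/5 (median -0.02). Relative to all genes, the median of these 6 lay 0.05 above in HepG2, with 4 of 6 above the all-gene median. In PLC/PRF/5 it lay 0.11 above, with 5 of 6 above, which is close to the 0.16 of the ATF4 list. No member reached 1.5-fold on that scale in either line, a size that 7.87% of genes reached in HepG2 and 9.32% in PLC/PRF/5. At a log2 ratio of 0.32 or more, CARS1, GARS1, MARS1, SARS1 and YARS1 were higher in HepG2 (4.42% of all genes), and WARS1 was in PLC/PRF/5 (8.8%).

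YARS1, the tyrosine enzyme (chromosome 1, 32775237 to 32818153, minus strand, GRCh38), stood at 12.2 FPKM in the HepG2 control and 18.2 in the treated library, and at 15.9 and 19.5 in PLC/PRF/5. Its ratio was 1.49 (1.41 to 1.59) in HepG2 and 1.23 (1.16 to 1.29) in PLC/PRF/5. Both treated libraries lay above both controls.

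GARS1, the glycine enzyme (chromosome 7, 30594681 to 30634033, plus strand), was the most abundant member in PLC/PRF/5, at 72.6 FPKM in the control and 88.5 in the treated library. In HepG2 it was at 37.4 and 53.1 FPKM. The ratios were 1.42 (1.35 to 1.49) in HepG2 and 1.22 (1.18 to 1.26) in PLC/PRF/5, so the lines' control levels differed more than treated and control did within either line.

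CARS1, the cysteine enzyme (chromosome 11, 3000922 to 3057613, minus strand), was the least abundant cytosolic member, at 2.48 and 3.93 FPKM in control and treated HepG2 and 5.40 and 6.22 in PLC/PRF/5. Its HepG2 ratio of 1.58 (1.402 to 1.78) was the highest of the family in that line, and its ratio in PLC/PRF/5 was 1.15 (1.06 to 1.254). On the log2(FPKM + 1) scale it came to 0.50, because the added 1 weighs on a low gene.

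SARS1, the cytosolic serine enzyme, stood at 18.6 and 23.7 FPKM in HepG2 and 27.0 and 33.98 in PLC/PRF/5. Its ratios of 1.27 (1.18 to 1.37) and 1.26 (1.18 to 1.33) were nearly equal in the lines. MARS1, the methionine enzyme, was at 17.9 and 25.1 FPKM in HepG2 and 33.9 and 36.3 in PLC/PRF/5, with ratios of 1.41 (1.33 to 1.49) and 1.07 (1.03 to 1.11). The treated HepG2 level of MARS1 stayed under that of the PLC/PRF/5 control. Its exons share 13.3% of their length with neighbours that include DDIT3, an ATF4-pathway transcription factor gene on the opposite strand at 4.94 and 7.11 FPKM in HepG2 and 11.8 and 21.8 in PLC/PRF/5. Whether counting used strand is not stated in the labels, and the part of DDIT3 fragments in the MARS1 values was not tested.

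WARS1, the tryptophan enzyme, which is also known as an interferon-induced gene, was the 1 member of the 13 whose ratio was lower in HepG2 than in PLC/PRF/5. Its level was 10.2 and 11.3 FPKM in HepG2 and 13.9 and 17.8 in PLC/PRF/5, giving ratios of 1.11 (1.03 to 1.20) and 1.28 (1.20 to 1.37). AARS1, the alanine enzyme, was at 39.0 and 45.1 FPKM in HepG2 and 54.1 and 55.2 in PLC/PRF/5, the seventh gene above 0 in both lines. Of all 34 measured members, these 7 (AARS1, CARS1, GARS1, MARS1, SARS1, WARS1, YARS1) were above 0 in both lines, where 8.36% of 11062 genes were. Another 18 members were below 0 in both, where 62.5% of genes were. The direction depends on the scale: on a TPM scale 6 of the 7, all but WARS1, lay below 0 in PLC/PRF/5, and AARS1 and WARS1 did so in HepG2.

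For the threonine enzyme TARS1 and the asparagine enzyme NARS1 the interval lay above 1 in HepG2 and included 1 in PLC/PRF/5. TARS1 was at 30.3 and 36.5 FPKM in HepG2 (ratio 1.21, 1.15 to 1.27) and at 35.1 and 34.9 in PLC/PRF/5 (0.993, 0.949 to 1.04). NARS1 was at 45.7 and 52.4 FPKM in HepG2 (1.15, 1.10 to 1.20) and at 64.8 and 64.6 in PLC/PRF/5 (0.997, 0.959 to 1.04). IARS1 (isoleucine) and EPRS1 (glutamate and proline) had HepG2 ratios of 1.03 and 1.02 with intervals that include 1. LARS1 (leucine) and VARS1 (valine) were the 2 of the 13 below 0 in both lines. LARS1 was at 12.9 and 12.5 FPKM in HepG2 and 17.3 and 15.1 in PLC/PRF/5, and VARS1 at 27.0 and 24.9 and at 33.3 and 30.1 FPKM.

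**Figure D2:**
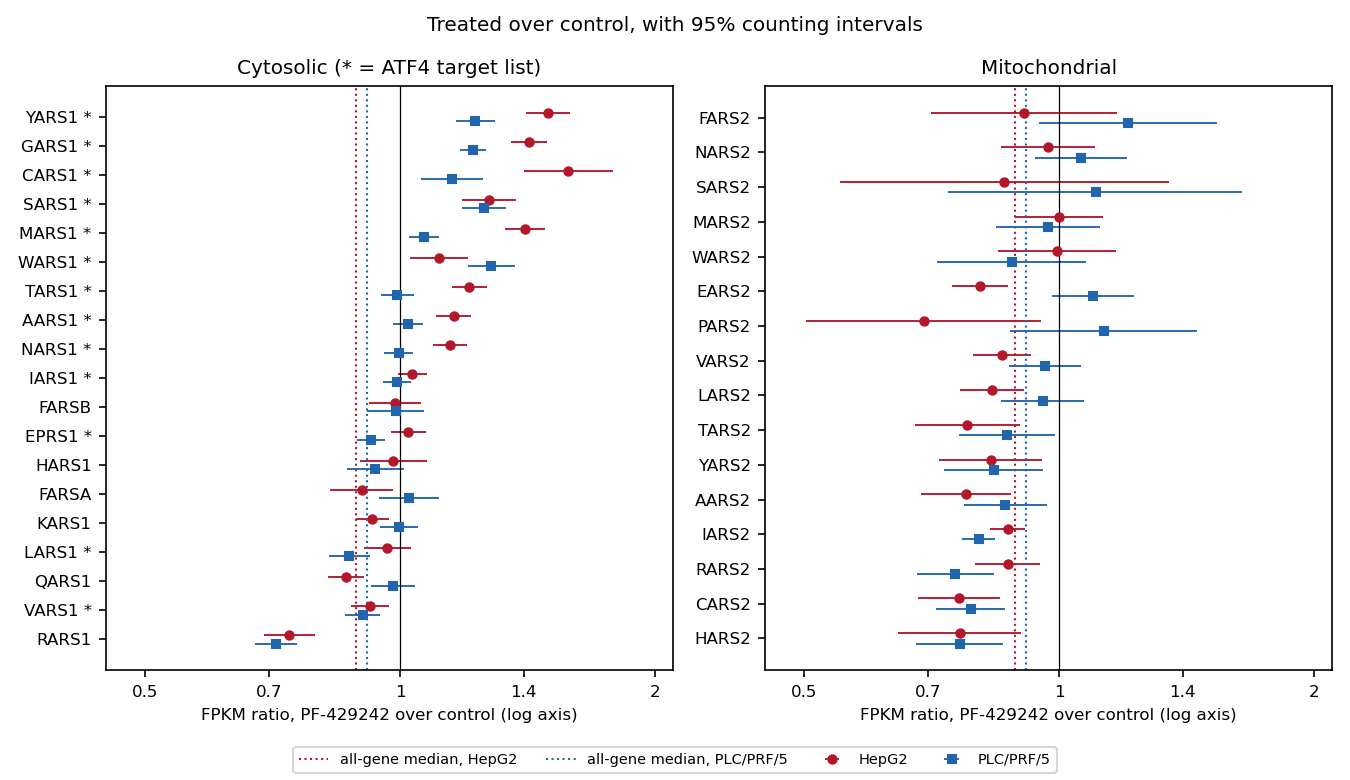
FPKM ratio of treated over control for each member (log axis) in HepG2 (circles) and PLC/PRF/5 (squares), with 95% counting intervals; dotted lines are the all-gene medians taken from log2(FPKM + 1). The ATF4-list genes (stars) fill the top of the cytosolic panel, RARS1 stands lowest there, and no mitochondrial gene in HepG2 has an interval above 1; on a TPM scale most cytosolic ratios lie below 1.

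RARS1, the cytosolic arginine enzyme (chromosome 5, 168486445 to 168519299, plus strand) and a subunit of the multisynthetase complex, was lower in both treated libraries. It was at 30.2 FPKM in the HepG2 control and 22.4 in the treated library, and at 45.3 and 32.3 in PLC/PRF/5. The ratios were 0.740 (0.691 to 0.793) and 0.714 (0.674 to 0.756), the lowest of the cytosolic genes in each line. It was the 1 cytosolic member below 0 in both lines under all 5 scalings tried, a pattern whose share among all genes was not computed. At a log2 ratio of -0.32 or less stood RARS1 and PARS2 in HepG2, where 21.5% of genes were, and RARS1, RARS2 and HARS2 in PLC/PRF/5, where 19.7% were.

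Among the other cytosolic genes, QARS1 (glutamine) was at 40.2 and 34.6 FPKM in HepG2, a ratio of 0.863 (0.821 to 0.906), and at 24.5 and 24.1 in PLC/PRF/5, a ratio of 0.981 (0.924 to 1.04). KARS1 had ratios of 0.927 (0.887 to 0.970) and 0.997, and HARS1 (histidine) 0.982 and 0.936. FARSA and FARSB, the subunits of the phenylalanine enzyme, had HepG2 ratios of 0.901 and 0.987 and PLC/PRF/5 ratios of 1.03 and 0.988. FARSA was at 25.0 FPKM and FARSB at 12.4 in the HepG2 control. Of the 7 enzymes of the multisynthetase complex (EPRS1, IARS1, KARS1, LARS1, MARS1, QARS1, RARS1), 3 were above 0 in HepG2 (17.6% of all genes) and 1 in PLC/PRF/5 (29.1%), with medians of -0.05 and -0.03. The complex medians lay 0.13 and 0.10 above those of all genes, with 5 of 7 above the all-gene median in each line. MARS1 at 0.47 and RARS1 at -0.42 marked the range of the complex in HepG2.

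The 15 measured mitochondrial genes showed a different range. None was above 0 in HepG2 and 4 were in PLC/PRF/5 (EARS2, FARS2, NARS2, PARS2), while 82.4% and 70.9% of all genes were below 0 in those lines. Their medians of -0.22 and -0.13 lay 0.04 and 0.01 below the medians of all genes, so as a set they stood close to the background. Relative to the all-gene median, 4 of 15 were above it in HepG2 and 7 of 15 in PLC/PRF/5, against 17 and 16 of the 19 cytosolic genes and an even split of all genes. In both lines at once, 15 cytosolic and 3 mitochondrial genes were above it, where 31.3% of genes were. AARS2, CARS2, HARS2, TARS2 and YARS2 were below 0 in both lines under all 5 scalings. The share of all genes that were so under all 5 was not computed, and on the deposited scale alone it was 62.5%.

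HARS2, the mitochondrial histidine enzyme (chromosome 5, 140691426 to 140699318, plus strand), was at 4.74 FPKM in the HepG2 control and 3.62 in the treated library, and at 9.38 and 7.16 in PLC/PRF/5. The ratio was 0.763 in both lines (0.645 to 0.903 in HepG2, 0.677 to 0.859 in PLC/PRF/5). It lies head to head with HARS1, and its exons share 15.8% of their length with HARS1 and ZMAT2, which adds uncertainty to both levels. CARS2, the mitochondrial cysteine enzyme, was at 3.75 and 2.86 FPKM in HepG2 and 5.16 and 4.06 in PLC/PRF/5, with ratios of 0.761 (0.681 to 0.852) and 0.787 (0.716 to 0.864). Like HARS2, it was lower by about the same factor in each line.

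IARS2, the isoleucine enzyme and the most abundant mitochondrial member, was at 49.2 and 42.8 FPKM in HepG2 and 56.6 and 45.5 in PLC/PRF/5, with ratios of 0.870 (0.830 to 0.912) and 0.804 (0.769 to 0.841). RARS2, the mitochondrial arginine enzyme, was at 19.7 and 17.1 FPKM in HepG2 and 15.2 and 11.5 in PLC/PRF/5, with ratios of 0.870 (0.796 to 0.950) and 0.754 (0.679 to 0.837). Both arginine enzymes were therefore lower in both treated libraries; on median-of-ratios scaling IARS2 and RARS2 were at 0.01 in HepG2.

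At the other end of the mitochondrial set, FARS2 (phenylalanine) was at 1.51 and 1.37 FPKM in HepG2 and 1.37 and 1.66 in PLC/PRF/5. NARS2 (asparagine) was at 8.46 and 8.20 and at 8.22 and 8.72 FPKM, and MARS2 (methionine) at 9.92 and 9.91 and at 7.02 and 6.81. Each of these intervals includes 1 in both lines. EARS2 (glutamate) was at 14.2 and 11.4 FPKM in HepG2 (0.807, 0.748 to 0.871) and at 5.60 and 6.13 in PLC/PRF/5 (1.10, 0.980 to 1.22). PARS2 (proline) was at 2.26 and 1.56 FPKM in HepG2 (0.692, 0.502 to 0.952) and at 2.68 and 3.02 in PLC/PRF/5 (1.13, 0.876 to 1.45). The remaining mitochondrial genes (AARS2, LARS2, TARS2, VARS2, WARS2, YARS2) had ratios between 0.776 (AARS2) and 0.995 (WARS2) in HepG2 and between 0.837 (YARS2) and 0.963 (VARS2) in PLC/PRF/5. VARS2 shares 21.99% of its exon length with GTF2H4.

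Pairs were formed by gene symbol (AARS1 with AARS2, and so on), which gave 13 amino acids with a cytosolic and a mitochondrial gene. In 12 of these pairs both genes were measured. Glutamate and proline (EPRS1 against EARS2 and PARS2) and phenylalanine (FARSA and FARSB against FARS2) are outside these pairs. The cytosolic log2 ratio was above the mitochondrial one in 11 of 12 pairs in HepG2 (median difference 0.27) and in 8 of 12 in PLC/PRF/5 (0.19). The 8 pairs of PLC/PRF/5 were all among the 11 of HepG2, and both counts were the same under all 5 scalings. The median difference lay between 0.26 and 0.28 for HepG2 and between 0.15 and 0.24 for PLC/PRF/5. TPM, median-of-ratios and nuclear scaling divide each library by a single factor. That factor cancels in these differences apart from the added 1, so unchanged counts under them are no check. Equalising quantiles could have changed the counts, and gave 11 and 8 with medians of 0.27 and 0.24. On the deposited scale the difference was 0.80 in HepG2 and 0.46 in PLC/PRF/5 for cysteine, and 0.79 and 0.51 for tyrosine. Arginine was below 0 in both lines (-0.23 and -0.10), since RARS1 was lower by more than RARS2. Leucine, asparagine and valine were above 0 in HepG2 and below it in PLC/PRF/5, at -0.14, -0.08 and -0.10. For the amino acids outside the pairs, EPRS1 in HepG2 (0.03) lay above EARS2 (-0.29) and PARS2 (-0.35). There FARS2 (-0.08) lay between FARSA (-0.14) and FARSB (-0.02). In PLC/PRF/5 EPRS1 (-0.11) lay below EARS2 (0.11) and PARS2 (0.13), and FARSA (0.03) and FARSB (-0.02) below FARS2 (0.16).

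**Figure D3:**
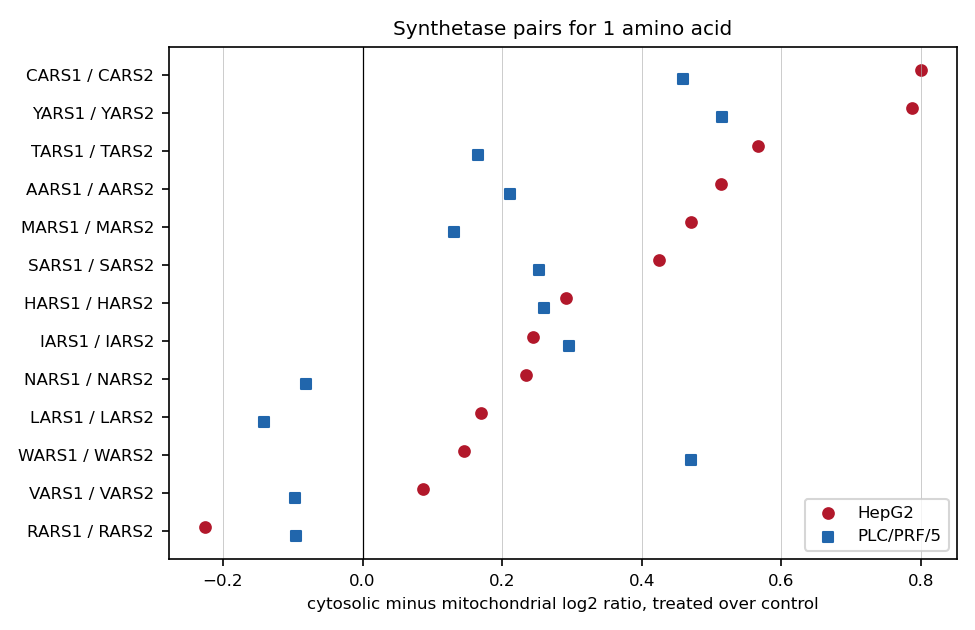
Cytosolic minus mitochondrial log2 ratio (treated over control, FPKM + 1) for each of the 13 pairs formed by symbol, in HepG2 (circles) and PLC/PRF/5 (squares). Serine is drawn although SARS2 is below 1 FPKM. The cytosolic log2 ratio is the higher of the pair in 11 of 12 measured pairs in HepG2 and 8 of 12 in PLC/PRF/5.

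Levels within a pair can also be compared, since FPKM is per length, but such a ratio rests on the gene lengths used. These were 8212 bases for YARS1 and 2152 for YARS2. For LARS2 the recovered length was 12462 bases, against 6829 in GENCODE 29. Which gene of a pair stands ahead can therefore depend on the annotation, while the change of its ratio between libraries does not. CARS1 was at 0.662 times CARS2 in the HepG2 control and 1.37 times in the treated library, and at 1.05 and 1.53 times in PLC/PRF/5. YARS1 over YARS2 was 1.10 and 1.99 in HepG2 and 1.33 and 1.95 in PLC/PRF/5. Isoleucine was the 1 pair with the mitochondrial gene ahead in every library: IARS1 over IARS2 was 0.701, 0.834, 0.675 and 0.832 in HepG2 control, HepG2 treated, PLC/PRF/5 control and PLC/PRF/5 treated. The median level ratio over the 13 pairs was 2.30 and 2.58 in HepG2 and 4.84 and 5.83 in PLC/PRF/5. It has the same limit, and includes serine although SARS2 is below 1 FPKM.

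The size of the response differed between the lines for part of the family. The ratio in HepG2 divided by that in PLC/PRF/5 was 1.37 for CARS1 (95% Wald counting interval 1.19 to 1.58), 1.32 for MARS1 (1.23 to 1.41), 1.22 for YARS1 (1.12 to 1.32) and 1.22 for TARS1 (1.14 to 1.30). It was 0.868 for WARS1 (0.784 to 0.960), 0.736 for EARS2 (0.645 to 0.841) and 0.613 for PARS2 (0.414 to 0.909). For SARS1 it was 1.01 (0.924 to 1.11), for RARS1 1.04 (0.949 to 1.13) and for HARS2 1.00, each with an interval that includes 1. Over the 13 ATF4-list genes the HepG2 log2 ratio was the higher in 12, and over all 34 measured members in 19, where it was for 38.7% of 11062 genes. With 1 library in each cell of this design the difference between lines has no test beyond counting error. Across the 34 members the lines' log2 ratios had a Pearson r of 0.68, and across all genes 0.18; the points share the 4 libraries, so both are descriptions.

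A treatment effect common to both lines was estimated with limma on log2(FPKM + 1) with the 2 lines as the only replicates and 1 residual degree of freedom. No gene of 12838 passed an adjusted p of 0.05 (0.0%), and none of the 34 members did. At an unadjusted p under 0.05, 1.9% of genes were higher and 17.5% lower. SARS1 (log2 effect 0.33, SE 0.07), GARS1 (0.39, SE 0.09) and YARS1 (0.41, SE 0.10) were among the higher, and RARS1 (-0.45, SE 0.07), HARS2, IARS2, RARS2, YARS2 and CARS2 among the lower. The lowest adjusted p of a member was 0.193. On a TPM scale the same fit called 6026 genes, 5980 of them lower, and 19 members, all lower, and under the other scalings it called none.

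In the untreated controls the lines differed in part of this family. All 13 ATF4-list genes were lower in the HepG2 control than in the PLC/PRF/5 control, where 53.3% of 13861 genes were, with a median log2 ratio of -0.46 against -0.06 for all genes; on a TPM scale 2 of the 13 were higher in HepG2. Past 1.5-fold stood 5 of the 34 measured members lower in HepG2 (GARS1, MARS1, CARS1, HARS2, EPRS1), against 23.7% of all genes. Another 4 were higher (EARS2, LARS2, VARS2, QARS1), against 19.8%. Both are smaller shares than those of all genes. The HepG2 level was 0.515 times that of PLC/PRF/5 for GARS1 (0.491 to 0.539), 0.460 times for CARS1 (0.410 to 0.515) and 0.526 times for MARS1 (0.4998 to 0.554). It was 2.53 times for EARS2 (2.31 to 2.78), 1.83 times for LARS2 (1.66 to 2.02) and 1.64 times for QARS1 (1.55 to 1.73). These ratios use the same control libraries as the treatment ratios, so the sets of values are not independent.

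**Figure D4:**
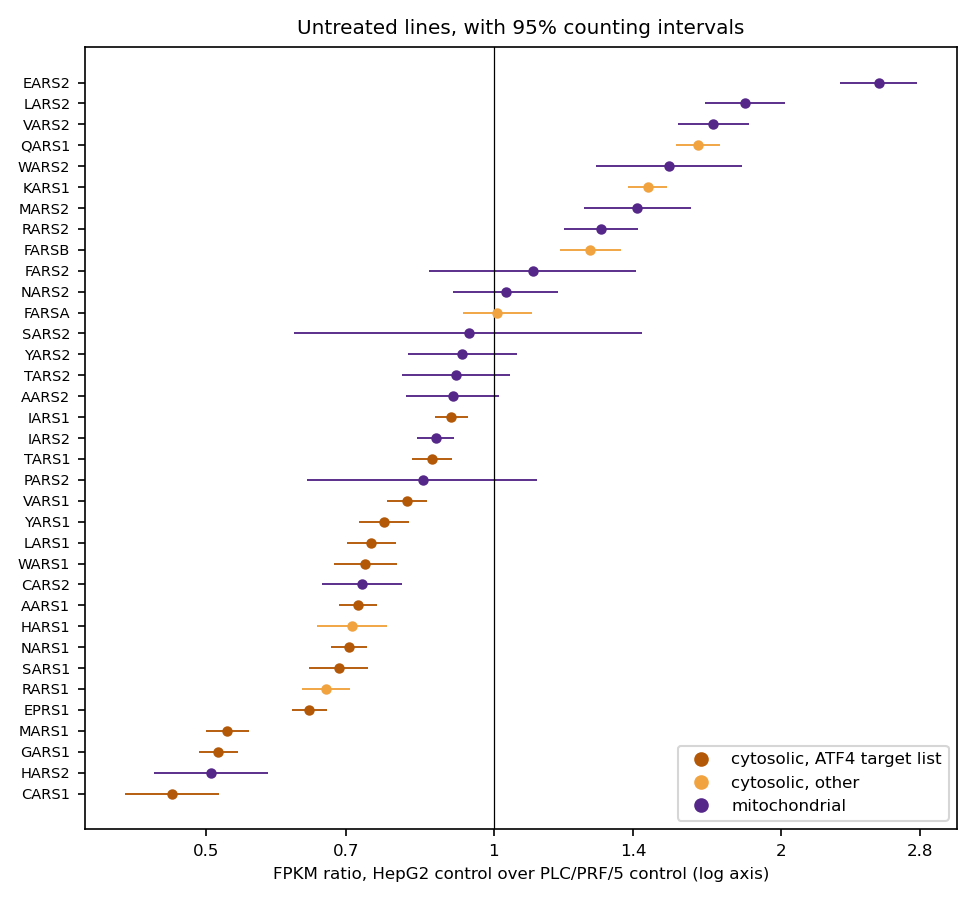
FPKM ratio of the HepG2 control over the PLC/PRF/5 control for each member (log axis, 95% counting intervals), ordered by the ratio. ATF4-list genes lie on the low side on the deposited scale, from CARS1 at 0.460, and EARS2 stands highest at 2.53.

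Promoter sequence gave a feature that the choice of members did not use. RefSeq windows from 250 bases before to 50 after the gene start (GRCh38.p14) were matched for 30 of the 35 genes; LARS1, VARS1, YARS1, AARS2 and VARS2 had none. The core of the C/EBP-ATF response element bound by ATF4, TGATGNAA on either strand, was found in 8 of the 30 genes, against 1217 of all 27305 genes with a window (4.46%) and 3.62% of all 35116 windows. The carriers were 7 of the 10 matched ATF4-list genes, none of the 6 other cytosolic genes, and 1 of 14 mitochondrial genes, YARS2. The ATF4 list comes from literature that rests in part on such elements, so the overlap is not independent of it. The 8 matches are shown with 10 bases on each side, 5′ to 3′ on the gene's strand, with the match in capitals; TTGCATCA and TTTCATCA are the core read on the other strand.
TARS1, chr5:33440957-33440984, plus strand: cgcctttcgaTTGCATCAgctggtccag
GARS1, chr7:30594835-30594862, plus strand: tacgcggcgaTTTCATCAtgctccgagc
IARS1, chr9:92293693-92293720, minus strand: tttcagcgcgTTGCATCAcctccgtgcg
CARS1, chr11:3057408-3057435, minus strand: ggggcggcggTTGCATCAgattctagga
MARS1, chr12:57488054-57488081, plus strand: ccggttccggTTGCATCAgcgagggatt
AARS1, chr16:70289676-70289703, minus strand: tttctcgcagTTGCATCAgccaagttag
NARS1, chr18:57621805-57621832, minus strand: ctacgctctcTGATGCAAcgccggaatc
YARS2, chr12:32756077-32756104, minus strand: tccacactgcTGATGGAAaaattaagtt

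In 6 of the 7 cytosolic carriers the match is TGATGCAA or its reverse, a form present in 1.08% of all genes and 0.866% of all windows; GARS1 has TTTCATCA and YARS2 has TGATGGAA. In TARS1, GARS1, IARS1, CARS1, MARS1 and NARS1 the match lies within 33 bases of the RefSeq start, and in AARS1 and YARS2 it lies 187 and 197 bases before it. The 7 cytosolic carriers were all above 0 in HepG2, with log2 ratios of 0.05 to 0.50 and a median of 0.26, and 4 of 7 were in PLC/PRF/5, with a median of 0.03. Of the 9 matched cytosolic genes with no match, 3 were above 0 in HepG2 and 3 in PLC/PRF/5, with medians of -0.02 in each. Of all genes, 17.6% were above 0 in HepG2 and 29.1% in PLC/PRF/5. All 7 carriers are on the ATF4 list and 6 of these 9 are not, so the contrast largely repeats list membership. The list genes among the 9 are EPRS1, SARS1 and WARS1, at 0.03, 0.33 and 0.14 in HepG2. In PLC/PRF/5 they were at -0.11, 0.32 and 0.34, and the highest carrier was at 0.28. SARS1 and WARS1 were above 0 in both lines, so genes with and without a match are both found above 0. YARS2, the mitochondrial carrier, was at 11.1 and 9.18 FPKM in HepG2 and 11.9 and 9.99 in PLC/PRF/5.

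Genes around the family were read from lists. Their counts stand beside 17.6% of all genes above 0 in HepG2 and 29.1% in PLC/PRF/5. Of genes of the ATF4 pathway and the integrated stress response, 16 of 17 measured were above 0 in HepG2 and 18 of 19 in PLC/PRF/5, with medians of 0.52 and 0.44, larger than those of the 13 synthetases. ASNS, NUPR1 and JDP2 in HepG2, and VLDLR in PLC/PRF/5, reached 1 FPKM in the treated library only. A gene measured in that way can only lie above 0, so these counts and medians are partly set by the filter. SLC7A11, the cystine transporter subunit, was at 7.25 and 17.2 FPKM in HepG2 and 9.98 and 15.6 in PLC/PRF/5, and ATF4 itself at 118 and 144 and at 120 and 138. Of cytosolic genes that act with the synthetases, such as scaffold subunits and the tRNA exporter XPOT, 5 of 8 were above 0 in HepG2 and 4 of 8 in PLC/PRF/5, with medians of 0.04 and 0.00. XPOT was at 27.7 and 34.6 FPKM in HepG2 and 39.3 and 41.6 in PLC/PRF/5. Of cytosolic translation factors 3 of 13 were above 0 in HepG2 and 5 of 13 in PLC/PRF/5 (medians -0.10 in each), and of mitochondrial translation factors 2 of 9 in each line (medians -0.10 and -0.05). The ATF4-list synthetases thus had a higher median than either set of translation factors in both lines, a comparison for which no test was run.

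The scale sets the sign for many members but little of their order. The median of the 13 ATF4-list genes in HepG2 was 0.21 on the deposited scale, -0.12 on a TPM scale, 0.40 scaled to nuclear genes, 0.41 with quantiles equalised and 0.42 by median-of-ratios scaling. Relative to the median of all genes on the same scale it lay between 0.33 and 0.41 above in HepG2 and between 0.10 and 0.21 above in PLC/PRF/5. This difference is nearly fixed under scalings by a single factor, and was 0.40 and 0.21 with quantiles equalised. For the mitochondrial genes the same difference lay between -0.08 and -0.04 in HepG2 and between -0.03 and 0.03 in PLC/PRF/5. By median-of-ratios scaling CARS1, GARS1, MARS1 and YARS1 were past 1.5-fold in HepG2 (log2 ratios 0.66, 0.71, 0.67 and 0.74), where 3.62% of genes were, and no member was in PLC/PRF/5 (5.29%).

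**Figure D5:**
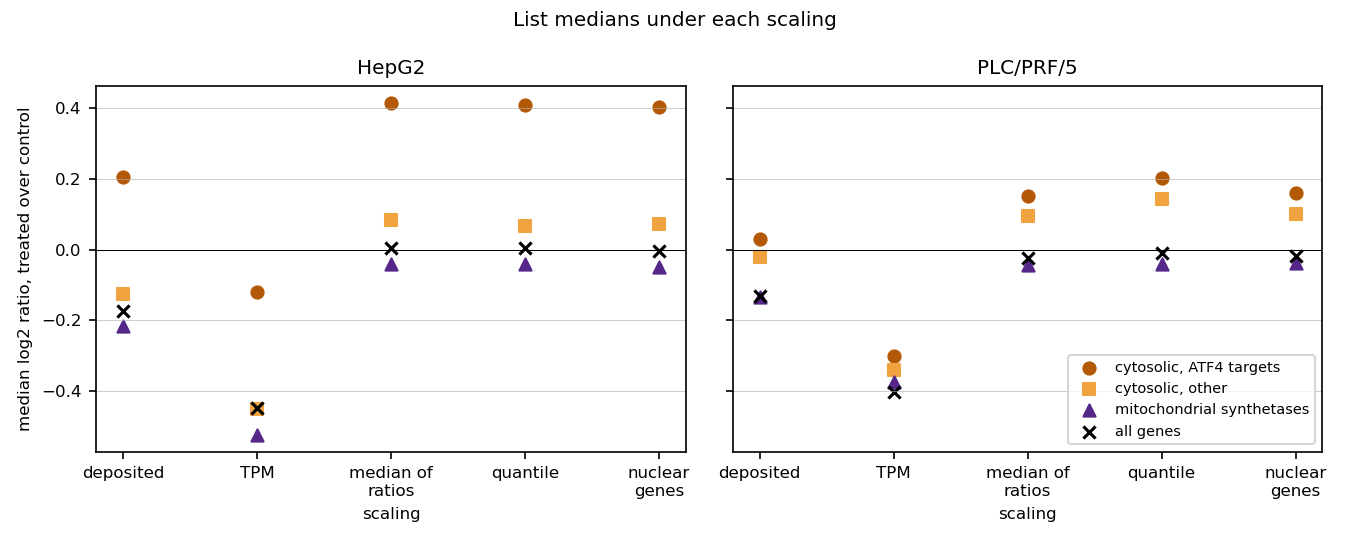
Median log2 ratio (treated over control) of the 13 ATF4-list genes, the 6 other cytosolic genes, the mitochondrial genes and all genes under 5 scalings, for each cell line. All medians shift together, below 0 on the TPM scale, and the ATF4-list median stays above that of all genes in each. Scaling each library by a single factor leaves that order nearly unchanged by construction.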

How the data were processed

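RNA-seq libraries of 4 cultures, 1 in each group, were analysed. The deposited values are FPKM per Ensembl gene; the authors used TopHat2 and GRCh38, per the submitters' processing notes, and the aligner's version, counting program and annotation were not given in these sources. Symbols came from a gene name table, with 17 of the 35 members renamed since GENCODE 29, whose GRCh38 positions are used. Fragments were recovered from the FPKM values as whole multiples for a gene length (24452 genes, 75.3%, with GENCODE 29 exon length within a tolerance of 0.001; 16 members so, the other 19 by a length that makes all 4 libraries whole). Ratios carry 95% exact conditional binomial intervals. Log2 ratios use FPKM + 1, which understates low genes, over genes that reached 1 FPKM in 1 or both libraries. The shared fit used limma 3.58.1 in R 4.3.3 (trend, cell line as block, 1 FPKM or more in 2 or more libraries), with Benjamini-Hochberg adjustment over all 12838 genes, and was tested on simulated data. The 2 lines are its only replicates, and the block removes their difference in level. Its p-values thus rest on how far the lines' treatment ratios disagree, with a variance moderated over all genes.

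By rule, the members given in full were the 6 highest and 4 lowest cytosolic and the 4 highest and 4 lowest mitochondrial genes by mean log2 ratio; others given in full, and neighbours named, were chosen after their values were seen. The members and lists were chosen with earlier results of these data known. Alternatives tried were other pseudocounts, filters, fold thresholds, scalings and limma settings.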

Additional observations from a re-analysis of the deposited data

How the results depend on the processing

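On the deposited scale 972 genes in HepG2, 1225 in PLC/PRF/5 and 6029 between the controls were past 1.5-fold, with 0, 0 and 9 members. A pseudocount of 0.1 gave 1664 genes with 1 member in HepG2 and 2161 genes in PLC/PRF/5. A pseudocount of 5 gave 192, 229 and 2571 genes, with 4 members between the controls. No filter on low values gave 1518 genes in HepG2, and at least 5 FPKM gave 313, 411 and 3132. A lower threshold, a log2 ratio of 0.32, gave 3205, 3746 and 9155 genes with 7, 4 and 22 members, and a 2-fold threshold 388, 433 and 3203 genes with 1 member between the controls. On the TPM scale, which divides by each library's summed FPKM (352221 to 516958), 3303 genes with 5 members and 2947 genes with 4 members were past 1.5-fold in HepG2 and PLC/PRF/5. Median-of-ratios scaling, quantile normalization and scaling to nuclear genes gave 4 members each in HepG2. The limma count of 0 genes held without trend, with robust moderation, with at least 5 FPKM and without the cell line block. It also held with an adjusted p under 0.10, by the scalings other than TPM, and by the other pseudocounts. The TPM scale called 6026 genes (46 higher, 5980 lower) and 19 members, all lower. The summed FPKM it divides by was 352221 in control and 443727 in treated HepG2, and 409697 and 516958 in PLC/PRF/5. The TPM scale thus lowers treated values relative to control in both lines. The part of this in the calls was not tested. The cytosolic minus mitochondrial difference of medians, 0.26 in HepG2 and 0.13 in PLC/PRF/5, kept its sign under every alternative run, from 0.20 to 0.31 and from 0.04 to 0.22. Fold thresholds cannot change this difference, and scaling by a single factor cancels in it apart from the pseudocount. Quantile normalization gave 0.28 and 0.22. The shared fit already pairs treated and control within each line through the cell line block, and the labels give no replicate number to pair by. Depth limits SARS2, PARS2 and FARS2 most, whose intervals are the widest of the family.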
